A study of Capra hircus with 2 samples.

Results

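Among 11663 transcript accessions with reads in goat longissimus thoracis, a muscle along the back, 4 taken as regulators of the thin filament are described here. How many others of the 11663 code for such regulators was not determined. The 4 were chosen by accession and taken as cattle RefSeq transcripts: NM_001001441 for TNNT3 (fast skeletal troponin T), NM_001034351 for TNNC1 (slow skeletal and cardiac troponin C), NM_001013590 for TPM1 and NM_001010995 for TPM2 (both tropomyosins). All 4 were read in both libraries. The deposited files hold accessions without gene names. The goat gene table used (assembly ARS1.2) held none of the 11663, these 4 included, so the names were not checked against these files.

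The muscle came from Chinese Xuhuai goats, with 1 library from fetuses at gestation day 90 (term 150 days) and 1 library from goats aged 6 months. The labels name no treatment or genotype, give neither the sex nor the number of animals behind a library, and repeat the fetal sampling text for the older muscle. The source names call both samples only goat skeletal muscle, so which muscle gave the 6-month library is less certain. The fetal library held 12811117 unique reads over 11393 accessions, and the 6-month library 9144138 over 10850. Levels are given as RPKM, which is the read number normalised to the transcript's length and to the library's read total. With 1 library per stage there was no replicate, no p-value could be given, and every interval below is an exact 95% interval that covers counting error only. It compares the 2 libraries and not the stages.

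In striated muscle, tropomyosin lies along the actin filament as a coiled coil and hinders myosin from binding while calcium is low. The troponin complex sits on tropomyosin: troponin C binds calcium, troponin I inhibits, and troponin T ties the complex to tropomyosin. When calcium binds troponin C, tropomyosin moves and contraction can start. Several of these proteins come in fast and slow forms made by separate genes, and fast and slow fibres differ in the forms they hold. Troponin T and I genes lie in neighbouring pairs. In the goat annotation TNNT3 has TNNI2 (fast troponin I) close by, with 1 gene, LSP1, listed between them.

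All 4 transcripts had a higher RPKM in the 6-month library. TPM1 and the fast form TNNT3 were 7.81 and 4.59 times as high at 6 months as in the fetal library. TPM2 and the slow form TNNC1 were 2.06 and 1.98 times as high. Together the 4 held 144435 fetal reads (1.13%) and 370568 reads at 6 months (4.05%), and their summed RPKM was 8397 and 34110. In bulk muscle, a difference in the number of fibres and one in RNA per fibre cannot be told apart. Why the 2 libraries differed was not tested.

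TNNT3, the fast skeletal troponin T, had 26667 fetal reads and 87317 reads at 6 months on a transcript of 815 bases. Its RPKM was 2554 in the fetal library (interval 2523 to 2585) and 11717 at 6 months (11639 to 11795). The ratio of 4.59 had an interval of 4.52 to 4.65, and on the log2(RPKM + 1) scale the fetal library minus the 6-month library was -2.20. This fast form was thus already the second highest of the 4 in fetal muscle, and it stood 63rd by RPKM among all fetal accessions and 8th at 6 months.

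TNNC1, the calcium-binding subunit shared by slow skeletal fibres and heart, had the lowest level of the 4 in both libraries. It had 11577 fetal reads and 16359 reads at 6 months on 788 bases. The RPKM was 1147 (interval 1126 to 1168) in the fetal library and 2270 (2236 to 2305) at 6 months. That is a ratio of 1.98 (1.93 to 2.03) and a log2 difference of -0.98. Its rank was 112th in the fetal library and 36th at 6 months.

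TPM1, the alpha tropomyosin found in fast fibres, heart and smooth muscle, had the largest difference of the 4. Its 26999 fetal reads and 150418 reads at 6 months, on 1159 bases, gave an RPKM of 1818 (interval 1797 to 1840) and of 14193 (14121 to 14265). The ratio was 7.81 (7.70 to 7.91) and the log2 difference -2.96. By RPKM it stood 88th among fetal accessions and 7th at 6 months, just above TNNT3.

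TPM2, the beta tropomyosin, was the highest of the 4 in the fetal library. It had 79192 fetal reads and 116474 reads at 6 months on the longest transcript of the 4, 2148 bases. Its RPKM was 2878 (interval 2858 to 2898) and 5930 (5896 to 5964), a ratio of 2.06 (2.04 to 2.08) and a log2 difference of -1.04. It ranked 56th in the fetal library and 15th at 6 months.

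**Figure D1:**
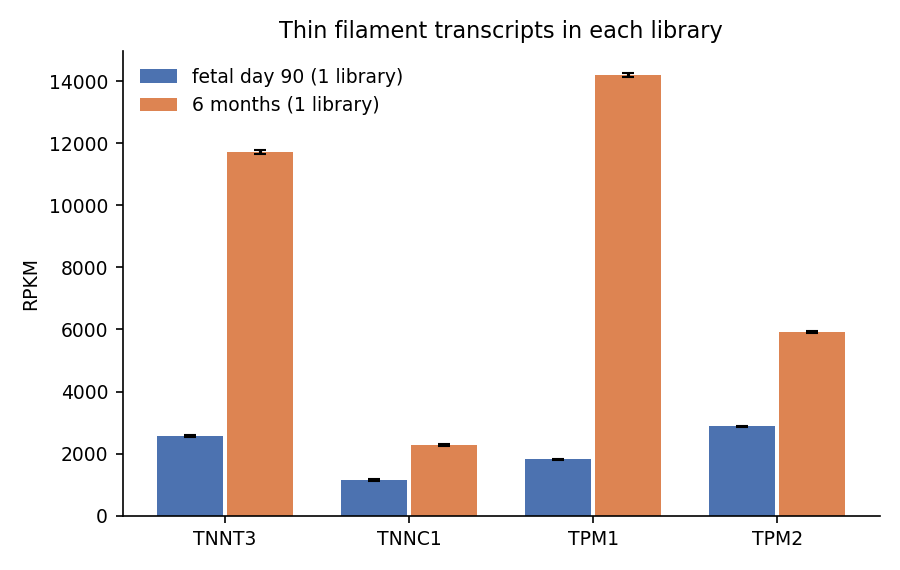
Bars give the RPKM of each transcript in the fetal library (blue) and the 6-month library (orange), 1 library each, and error bars are 95% Poisson intervals of the reads. The 6-month bar is the taller one for all 4, from 2270 for TNNC1 to 14193 for TPM1, while the fetal bars lie between 1147 and 2878.

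The order of the levels differed between the libraries. In fetal muscle it was TPM2 (RPKM 2878), TNNT3 (2554), TPM1 (1818) and TNNC1 (1147). At 6 months it was TPM1 (14193), TNNT3 (11717), TPM2 (5930) and TNNC1 (2270). No counting interval of one transcript touched that of its neighbour in either order, but the spread between animals is unknown. How well goat reads match each of these cattle transcripts, which can also affect the order, was not measured. TPM1 thus led at 6 months and TPM2 in the fetal library, where TPM1 was below TNNT3 as well.

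Of the 25713 RPKM by which the sum of the 4 was higher at 6 months, TPM1 made up 48.1% and TNNT3 35.6%. TPM2 made up 11.9% and TNNC1 4.37%. As shares of the summed RPKM, TPM1 was 21.7% in fetal muscle and 41.6% at 6 months, and TNNT3 was 30.4% and 34.3%. TPM2 was 34.3% and 17.4%, and TNNC1 was 13.7% and 6.66%. The slow troponin and the beta tropomyosin therefore held a smaller part of the sum at 6 months, although neither had a lower RPKM there.

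**Figure D2:**
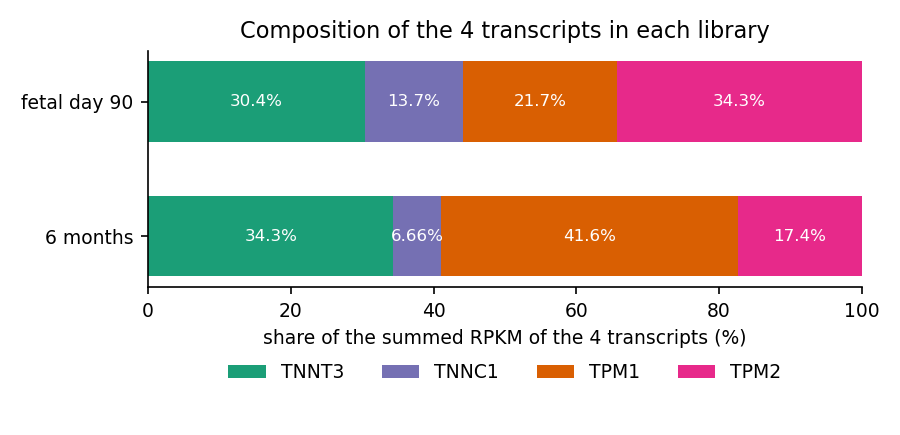
Each bar splits the summed RPKM of the 4 transcripts in 1 library into the share of each, in percent. TPM2 holds the largest share in the fetal library (34.3%) and TPM1 at 6 months (41.6%), and TNNC1 holds the smallest in both.

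Ratios taken within a library do not depend on how the libraries are scaled to each other. The ratio of fast troponin T (TNNT3) to slow and cardiac troponin C (TNNC1), per length, was 2.23 (interval 2.18 to 2.28) in fetal muscle. At 6 months it was 5.16 (5.08 to 5.25), so the balance lay 2.32 times (2.25 to 2.38) further toward the fast form. TNNT3 and TNNC1 code for different subunits, and the fast troponin C (TNNC2) and the slow troponin T (TNNT1) were not analysed here, so this is a ratio of 2 transcripts and not a share of fast troponin.

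The tropomyosins were in opposite order in the libraries. TPM2 made up 61.3% of the summed RPKM of TPM1 and TPM2 in the fetal library (60.95% to 61.6%) and 29.5% at 6 months (29.3% to 29.6%). The ratio of TPM1 to TPM2 was 0.63 in fetal muscle and 2.39 at 6 months, which is 3.79 times as high (3.73 to 3.85). Their sum was 4696 RPKM in fetal muscle and 20123 at 6 months, 4.28 times as high. That of TNNT3 and TNNC1 was 3701 and 13987, 3.78 times as high. The first sum over the second was 1.27 in the fetal library and 1.44 at 6 months. The slow tropomyosin gene TPM3, TPM4, TNNC2, TNNT1 and the troponin I genes were not analysed here. The ratio of the 2 sums is therefore not one of all tropomyosin to all troponin. TPM1 and TPM2 are close relatives. The file headers call the counted reads unique, but the sources used here do not define the term, so the treatment of reads that match both is not known.

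Among all 6 pairs, the ratio of TNNC1 to TPM2 differed least between the libraries. It was 0.40 in fetal muscle and 0.38 at 6 months, 0.96 times the fetal value (0.94 to 0.99), which is a log2 change of -0.06. The ratio of TNNT3 to TPM1 was 1.40 in fetal muscle and 0.83 at 6 months, a log2 change of -0.77 (-0.79 to -0.74), so the order of these 2 was reversed. The 4 other pairs differed by more. TNNC1 to TPM1 differed by -1.98 log2 units, TPM1 to TPM2 by 1.92, TNNT3 to TNNC1 by 1.21 and TNNT3 to TPM2 by 1.15.

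**Figure D3:**
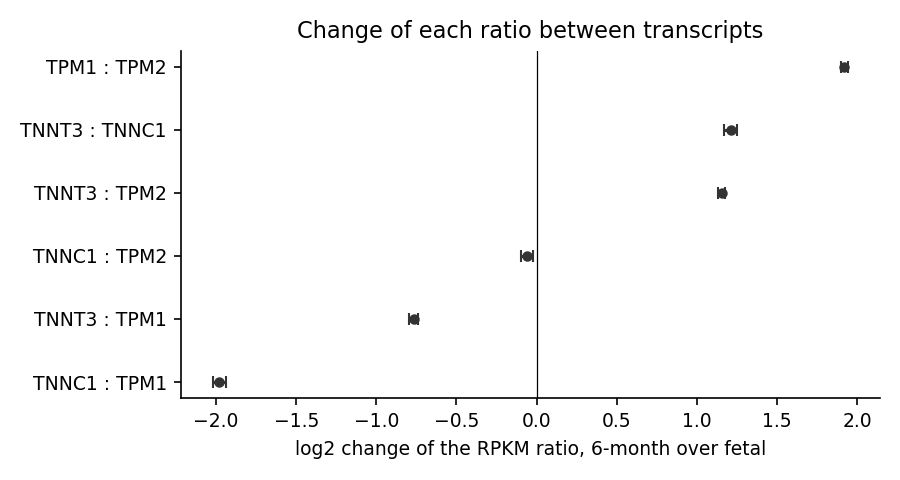
Points give the log2 change of the RPKM ratio of each pair, 6-month over fetal, with 95% intervals for counting error, and the vertical line marks no change. TNNC1 to TPM2 lies next to the line at -0.06, and the pair ratios reach from -1.98 (TNNC1 to TPM1) to 1.92 (TPM1 to TPM2).

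A transcript was called higher in a library when log2(RPKM + 1) differed by at least 1, among 9705 accessions that reached an RPKM of 1 in at least 1 library. TPM1, TNNT3 and TPM2 were called higher at 6 months, which 9.46% of all accessions compared were, and none of the 4 was called higher in the fetal library, where 35.1% were. TNNC1 was not called, at -0.98, and the interval of its ratio (1.93 to 2.03) spanned 2. TPM2, at -1.04, lay just past the same threshold, so these neighbours were split by a threshold and hardly by their values. The median log2 difference was -1.62 over the 4 and 0.61 over all accessions compared.

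Most abundant accessions lay the other way. Of 128 accessions whose mean RPKM reached 1000, all 4 among them, 28.1% were called higher at 6 months and 59.4% in the fetal library, with a median log2 difference of 1.55. In this band, 15 accessions lay further toward 6 months than TPM1, 24 than TNNT3, 35 than TPM2 and 36 than TNNC1. Among all 9705, 134 (1.38%) lay further toward 6 months than TPM1 and 282 (2.91%) than TNNT3. The numbers for TPM2 and TNNC1 were 876 (9.03%) and 936 (9.64%).

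**Figure D4:**
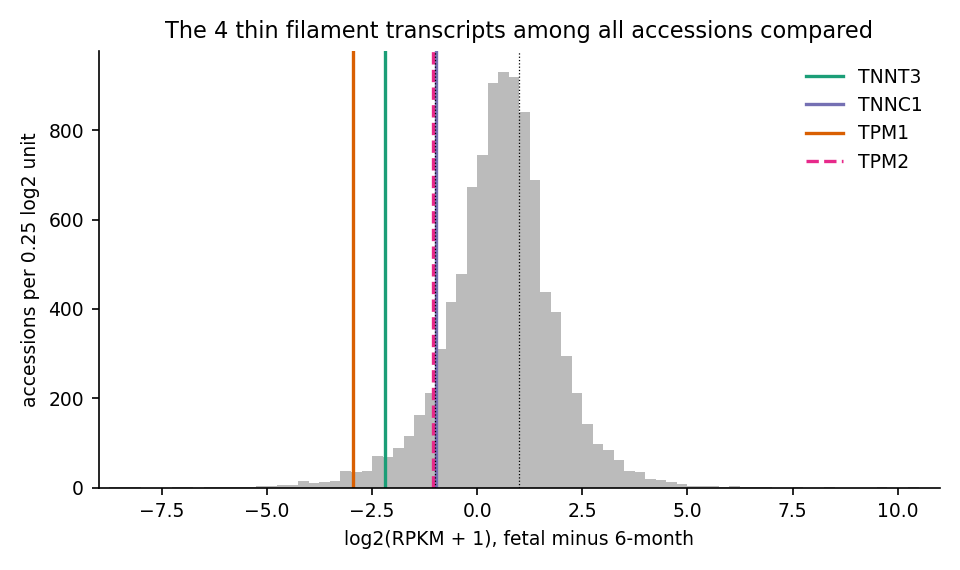
Grey bars count the 9705 accessions by their log2(RPKM + 1) difference, fetal minus 6-month, coloured lines mark the 4 transcripts, and dotted lines mark the thresholds of -1 and 1. All 4 lie left of 0, with TPM2 (-1.04) and TNNC1 (-0.98) on either side of the left threshold.

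Few accessions shared the levels of these transcripts. Within 0.5 log2 units in both libraries, TNNT3 and TPM1 had only each other. TNNC1 had 1 such accession and TPM2 had 2, none of them among the 4 and none with a name. With 2 libraries this compares 2 values per transcript and says little of a shared pattern.

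The direction was the same under the 4 other scalings tried, but the size was not. RPKM is relative to the read total, and the median log2 ratio over accessions that reached an RPKM of 1 in both was 0.58 toward the fetal library. Centred on that median, the differences were -3.54 for TPM1, -2.78 for TNNT3, -1.62 for TPM2 and -1.56 for TNNC1. All 4 were then called higher at 6 months, against 17.2% of all accessions. All 4 were also called with trimmed mean centring (17.3% of accessions) and with transcripts-per-total scaling (11.1%). The same held with the 50 most abundant accessions left out of the totals (12.5%). Of these 5 scalings only the deposited RPKM left TNNC1 under the threshold. Each of the 4 others rescales whole libraries and moved all 4 transcripts toward 6 months by nearly the same amount, so they are not separate checks.

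**Figure D5:**
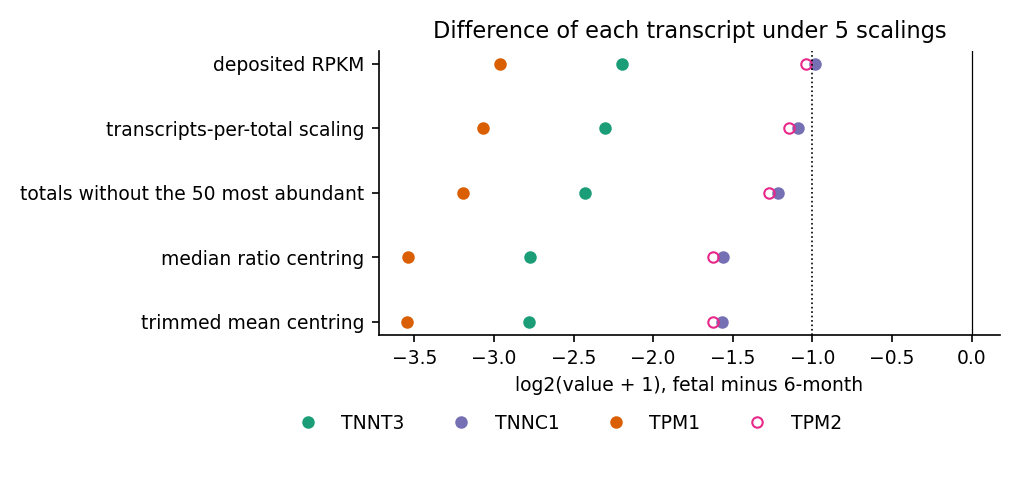
Points give the log2 difference, fetal minus 6-month, of each transcript on the deposited RPKM and under 4 other scalings, with the threshold of -1 dotted and 0 solid. All points lie left of 0, and TNNC1 lies right of the threshold only on the deposited RPKM (-0.98).

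Reads covered most of each transcript. TNNT3 was covered over 99.75% of its length in both libraries, TPM1 over 98.2% in fetal muscle and 99.1% at 6 months, and TPM2 over 92.4% and 91.9%. TNNC1 was covered over 83.9% in the fetal library, with 127 bases without a read, and over 95.3% at 6 months, with 37 bases without one. This gain of 11.4 percentage points was the largest among 101 accessions with a mean depth of 500 or more reads per base in each library, where the median gain was -0.09. That depth was set after the values were seen, and at a minimum of 100 reads per base 5 of 426 accessions had a larger gain. The 90 bases that the gain comes to equal the span of 1 read. Counted per covered base in place of the whole length, the ratio of TNNT3 to TNNC1 was 1.87 in the fetal library and 4.93 at 6 months.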

How the data were processed

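The members and gene lists were chosen with earlier results of these data known. Each deposited file gives, per the file headers, the count of unique reads per accession, the transcript length, the percent of the transcript covered and the RPKM. The deposited RPKM equalled reads divided by length and by the library total. The aligner, the counting rules, the use of strand and the genome build are not given in the sources used.

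Differences were taken as log2(RPKM + 1), fetal minus 6-month, among accessions that reached an RPKM of 1 in at least 1 library. A difference of at least 1 was called. Intervals were exact: Poisson for levels, Clopper-Pearson for ratios of 2 counts and the conditional odds ratio for changes of ratios. Reads are not separate molecules where PCR copied them. A read span of 90 bases was taken from accessions with 1 read. The named genes are the 4 members. Lists of 6 further troponins, 2 tropomyosins, 7 thin filament genes and 21 cell type markers matched 0 accessions through the goat table, so no other gene and no other cell type was examined, and no sequence was used. Alternatives covered the pseudocount, scaling, minimum level, threshold and length. The tools were SciPy 1.17.1, NumPy 2.4.6 and pandas 2.3.3 under Python 3.11.15, with matplotlib 3.10.9 for plots.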

Additional observations from a re-analysis of the deposited data

How the results depend on the processing

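No paired analysis was possible because each stage had 1 library, and no replicate could be left out. All 4 transcripts kept their direction under the 6 alternatives run for them, and pseudocounts of 0.1 and 5 moved each by less than its counting interval. With RPKM of 1147 or more for all 4, such pseudocounts could hardly move them, so this is not a check. Transcripts-per-total scaling gave log2 differences, fetal minus 6-month, of -2.30 for TNNT3, -1.09 for TNNC1, -3.07 for TPM1 and -1.15 for TPM2. Totals without the 50 most abundant accessions, of which TNNT3, TPM1 and TPM2 are 3, gave -2.43, -1.21, -3.19 and -1.27 in the same order. Median ratio centring gave -2.78, -1.56, -3.54 and -1.62, and trimmed mean centring gave -2.78, -1.57, -3.54 and -1.62.

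Per covered base, the ratio of TNNT3 to TNNC1 was 1.87 in fetal muscle and 4.93 at 6 months, and its log2 change was 1.40 in place of 1.21. The covered part of TNNC1 differed by 90 bases between the libraries, the span of 1 read, so this move rests on little sequence. The TPM2 share of both tropomyosins was 62.7% and 31.1% per covered base, and 60.4% and 28.7% with lengths shortened by a read span. The remaining length alternatives moved their ratios by less than the counting interval. Lengths shortened by a read span are the same in both libraries, so they could not move a change of ratio between libraries.

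The number of accessions called higher in the fetal library (3411) became 1811 with a pseudocount of 5, 2162 and 2157 with median and trimmed mean centring, and 1051 at a threshold of 2 log2 units. The number called at 6 months (918) became 1674 and 1678 with the same centrings and 339 at the threshold of 2, which TPM1 and TNNT3 still passed. Depth limits little here, since the lowest count of the 4 was 11577 reads. The spread between animals was not measured.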
